A study of Drosophila melanogaster with 3 samples.

Results

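The 473 peaks described here are the intergenic members of a list of 3688 peaks at which CG4328-GFP was recovered from chromatin of fly embryos (12.8% of the list, 95% Wilson interval 11.8 to 13.9%). A peak was taken as intergenic where its summit, the position of its highest signal, lay outside the body of every protein-coding gene and more than 500 bp from every annotated protein-coding transcription start. The other peaks had their summit within 500 bp of a start (1960, called promoter peaks below), in an intron (1193) or in an exon (62). The rule used only positions, not the height of the peaks. A further 5263 intergenic peaks were found in the pooled relaxed list, the longer list from which the 3688 optimal peaks were cut. That list is labelled as holding peaks and background. These relaxed-only peaks thus served as a comparison and need not be bound sites.

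The study was a chromatin immunoprecipitation with sequencing (ChIP-seq) experiment on whole Drosophila melanogaster embryos of both sexes, collected from 8 to 24 h. All embryos came from 1 transgenic line that stably expressed CG4328 with green fluorescent protein at its C-terminus, so every library carries the tagged transgene and there is 1 group with 3 biological replicates. Sonication gave fragments of 200 to 800 bp, and an antibody against the tag recovered those bound by the fusion protein. What drives the transgene is not stated in the labels, no control library was analysed here, and no cell type within the embryo can be told apart.

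CG4328 encodes a LIM-homeodomain protein, a class of transcription factors that pair a DNA-binding homeodomain with LIM domains for contact with other proteins and that are known for specifying neurons, muscles and appendages. Homeodomains of this class recognise short A/T-rich sites with the core TAATTA. Sequence between genes holds many of the enhancers of developmental genes, which can act over long distances, and also the promoters of genes for long non-coding RNAs, small nuclear RNAs and transfer RNAs.

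High intergenic peaks that held the core TAATTA within 100 bp of the summit, together with a peak near eyg that held 2 copies, are shown because they join a high rank to a site of the class described above. The eyg peak was chosen after its values were seen, and the highest member with the core, ranked 22, is not shown. They are read from the plus strand of the RefSeq release 6 genome sequence (dm6), 100 bp to each side of the summit, with TAATTA in capitals. The windows are chr3R:21520247-21520447 near sp3 (peak ranked 51 by signal value in the optimal list), chrX:2124026-2124226 near ph-d (rank 69), chr2L:1643360-1643560 near chinmo (rank 87), chr3L:6989244-6989444 near bin (rank 220) and chr3L:12457391-12457591 near eyg (rank 1399).
sp3: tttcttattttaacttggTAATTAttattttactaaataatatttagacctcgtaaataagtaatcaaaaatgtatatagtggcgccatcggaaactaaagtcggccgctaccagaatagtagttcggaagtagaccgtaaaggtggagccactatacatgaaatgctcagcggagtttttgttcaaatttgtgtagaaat
ph-d: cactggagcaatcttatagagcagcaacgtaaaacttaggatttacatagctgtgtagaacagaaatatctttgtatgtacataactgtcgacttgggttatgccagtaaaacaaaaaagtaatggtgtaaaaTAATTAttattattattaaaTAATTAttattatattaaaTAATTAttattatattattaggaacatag
chinmo: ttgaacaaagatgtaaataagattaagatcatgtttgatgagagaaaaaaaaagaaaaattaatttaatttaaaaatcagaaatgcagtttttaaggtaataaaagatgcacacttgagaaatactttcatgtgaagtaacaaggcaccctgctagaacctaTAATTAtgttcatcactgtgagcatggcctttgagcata
bin: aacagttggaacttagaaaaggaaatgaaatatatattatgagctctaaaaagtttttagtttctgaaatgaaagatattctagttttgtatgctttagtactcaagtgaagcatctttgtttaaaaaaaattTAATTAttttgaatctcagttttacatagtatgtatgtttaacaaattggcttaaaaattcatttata
eyg: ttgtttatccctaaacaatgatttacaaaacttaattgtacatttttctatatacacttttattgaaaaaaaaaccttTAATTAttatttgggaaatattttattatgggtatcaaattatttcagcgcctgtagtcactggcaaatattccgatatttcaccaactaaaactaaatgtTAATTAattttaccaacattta
The window near ph-d held 3 copies, all to 1 side of the summit and centred 35.5, 55.5 and 74.5 bp from it, in a stretch made almost only of A and T. The copies near sp3 and chinmo lay far from the summit, centred 79.5 bp to the left and 64.5 bp to the right. Only the eyg window had a copy within 20 bp of its summit, centred 19.5 bp to the left.

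Non-coding genes whose start lay close to an intergenic summit are shown next, 75 bp to each side of the summit and on the strand of the non-coding gene, with its annotated bases in capitals. They are the long non-coding RNA gene lncRNA:CR31840 (chr2L:14024007-14024157), lncRNA:CR45588 (chr3R:5053721-5053871), the transfer RNA gene tRNA:Thr-AGT-1-5 (chr3R:17624549-17624699) and the gene of the spliceosomal small nuclear RNA snRNA:U1:95Ca (chr3R:23859508-23859658), all on the minus strand, and were chosen after their values were seen.
lncRNA:CR31840: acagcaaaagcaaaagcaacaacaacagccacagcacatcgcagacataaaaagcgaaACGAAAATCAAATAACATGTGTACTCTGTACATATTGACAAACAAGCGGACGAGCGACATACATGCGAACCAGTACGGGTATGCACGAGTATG
lncRNA:CR45588: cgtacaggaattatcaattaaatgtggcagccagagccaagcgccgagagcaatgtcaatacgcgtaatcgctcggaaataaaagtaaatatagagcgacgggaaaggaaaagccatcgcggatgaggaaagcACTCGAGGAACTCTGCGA
tRNA:Thr-AGT-1-5: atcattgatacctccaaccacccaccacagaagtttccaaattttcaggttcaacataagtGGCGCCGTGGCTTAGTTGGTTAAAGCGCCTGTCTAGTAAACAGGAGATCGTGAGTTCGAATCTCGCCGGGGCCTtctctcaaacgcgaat
snRNA:U1:95Ca: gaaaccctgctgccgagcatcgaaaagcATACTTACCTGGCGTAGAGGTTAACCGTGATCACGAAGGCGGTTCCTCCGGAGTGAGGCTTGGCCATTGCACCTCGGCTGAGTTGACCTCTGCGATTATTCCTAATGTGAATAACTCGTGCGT
The summit, the middle base of each line, lay 17 bp after the start of lncRNA:CR31840, 58 bp before that of lncRNA:CR45588, 14 bp into the transfer RNA gene and 47 bp into the small nuclear RNA gene. In that order the peaks ranked 7, 929, 3674 and 3108 in the optimal list. Neither of the last pair was among the 3688 highest peaks of every replicate. Transfer RNA and small nuclear RNA genes have near-identical copies elsewhere in the genome, and how the authors placed reads among copies is not stated, so peaks at them are uncertain.

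The best placed intergenic peaks were high in every replicate. The highest, ranked 7 among all optimal peaks, was at chr2L:14023886-14024373, between NimC3 and hll and 2919 bp upstream of the nearest start of hll. It was the peak ranked 5, 7 and 6 in replicates 1, 2 and 3, and its summit fell at the start of lncRNA:CR31840 shown above. The same interval was listed again at rank 1462 with a weaker summit 186 bp before that start. The next, ranked 10, was at chrX:12750844-12751626 between CG4004 and Paics, 5001 bp downstream of a start of CG4004, and ranked 14, 15 and 11. These were the only intergenic peaks among the 20 highest optimal peaks. Replicate ranks here and below are the best rank of any overlapping peak in that replicate's list. The optimal list was cut from the pooled data of the same libraries, so a high rank in both is a description.

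The peak ranked 22 in the optimal list lay at chr2R:12985017-12985399, 4190 bp upstream of Psc, which encodes a Polycomb group protein, and 183 bp upstream of lncRNA:CR44339; its replicate ranks were 18, 20 and 54. A peak between Su(z)2, another Polycomb group gene, and CG13323 (chr2R:13035159-13035508) ranked 59 in the optimal list and 54 and 36 in replicates 1 and 2, but overlapped no peak in the list of replicate 3. The peak near ph-d, a further Polycomb group gene, ranked 51, 63 and 94. Thus 2 of these 3 peaks were high in every replicate and 1 was missing from a whole replicate list.

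Other high intergenic peaks lay near genes of varied function. The peak 762 bp upstream of jp, the junctophilin gene (chr2L:9567326-9567664), ranked 42, 21 and 34 in the replicates. The peak 5733 bp upstream of eEF1gamma, a translation elongation factor gene (chr3R:29214265-29214604), ranked 43, 37 and 61 and was 123 bp upstream of lncRNA:CR31044. The peak 581 bp upstream of sp3 ranked 70, 123 and 17, so its place ranged widely between replicates. The peak 7798 bp upstream of chinmo, which encodes a BTB zinc-finger protein of neuronal temporal identity (chr2L:1643222-1643601), ranked 62, 84 and 103. The nearest genes of the remaining peaks among the 20 highest members were CycB, Boot, DNAlig3, zfh2, CG13321, Hex-A, nej, CG4218, Rh5, RasGAP1 and bin, at optimal ranks from 74 to 220. Among these, nej encodes the CBP acetyltransferase, zfh2 a zinc-finger homeodomain protein and bin a forkhead factor of the visceral mesoderm. The peak of bin (chr3L:6989324-6989565), 1278 bp upstream of its start, ranked 225, 185 and 260. Of the 20 highest members, only the peak near CG13323 was not among the 3688 highest peaks of every replicate.

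Over all members, the peaks were found again in the replicates about as often as other optimal peaks. A member was called supported by a replicate where it overlapped, by at least 1 bp, one of the 3688 highest peaks of that replicate's own list. Support was 83.5% in replicate 1, 81.4% in replicate 2 and 74.0% in replicate 3, beside 85.7, 83.7 and 72.4% over all optimal peaks. All 3 replicates supported 261 members (55.2%, Wilson interval 50.7 to 59.6%), beside 56.2% of all optimal peaks; 139 members had support from 2 replicates, 69 from 1 and 4 from none. The intergenic share minus the intronic share was -1.49, -2.68 and 1.32 percentage points in replicates 1, 2 and 3, a mean of -0.948 ± 2.05 (SD, n = 3). The sign was not the same in every replicate, and the exact 2-sided sign-flip permutation test gave p = 0.50; with 3 replicates this test cannot go below 0.25.

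Support followed rank. Among the highest quintile of the optimal list, 73 of 75 members were supported by all 3 replicates (97.3%), and among the lowest quintile 12 of 125 (9.60%). The corresponding values over all optimal peaks were 93.5 and 10.4%, and some fall follows from cutting all lists at the same length. A member that overlaps a higher neighbour takes that neighbour's support. Members made up 10.2% of the highest quintile and 16.9% of the lowest, and their median rank was 2045, beside 2042 for intronic and 1655 for promoter peaks. Optimal peaks missing from the whole list of replicate 3 were 13.6% of all peaks, 8.03% of the members (38 peaks, Wilson interval 5.91 to 10.8%), 9.22% of intronic and 17.2% of promoter peaks. Across members, Spearman's rho of signal values was 0.733 between replicates 1 and 2 (469 peaks), 0.637 between 1 and 3 (434) and 0.600 between 2 and 3 (432); these values are a description, since all peaks come from the same libraries.

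**Figure D1:**
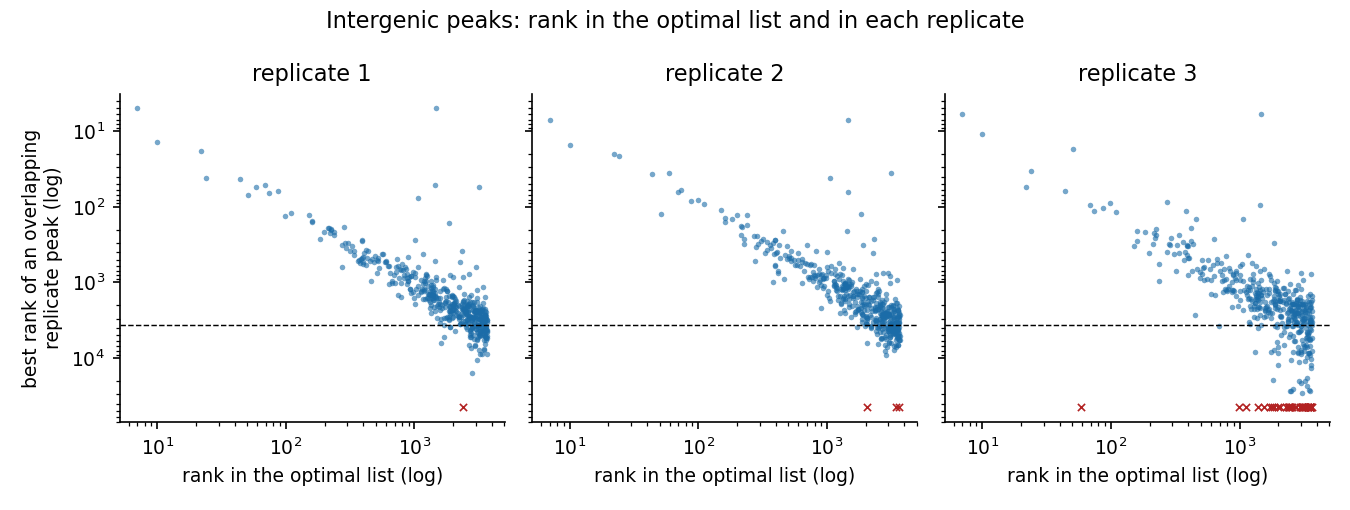
Each point is 1 intergenic peak, with its rank in the optimal list on the x axis (log scale) and the best rank of an overlapping peak in the list of replicate 1, 2 or 3 on the y axis (log scale, highest ranks at the top). The dashed line is rank 3688 and red crosses are members with no overlapping peak, 1 in replicate 1, 3 in replicate 2 and 38 in replicate 3; points well above the band are members that share a replicate peak with a higher neighbour, such as the second record at rank 1462.

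Distances to the nearest protein-coding start ran from just over the limit to far into gene-poor sequence. The rule fixes the lower end, so these values are given without a test. The median was 3635 bp, with quartiles at 1534 and 8032 bp and a maximum of 68602 bp. In the replicates' own lists of 3688 peaks, which held 449, 446 and 543 intergenic peaks, the medians were 3422, 3464 and 3918 bp. The members just inside the limit were near stv (511 bp), SERCA (512 bp) and Mkp3 (514 bp), a co-chaperone gene, a calcium pump gene and a MAP kinase phosphatase gene. The peaks just outside it were near CrebA (495 bp), CG42808 (492 bp) and PIG-K (488 bp). Replicate ranks on both sides of the limit were mixed: stv had 381, 480 and 312, PIG-K 1700, 969 and 577, and CrebA 4018, 1585 and 2223.

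The most remote members lay on chromosome arm 3L in 2 long gaps. A pair of peaks between Or67d and CG12362 lay 68602 and 59971 bp from the nearest start and ranked 2623 and 1377. A peak between vvl and Prat2 lay 60328 bp from a start and ranked 2943. All 3 were supported by at least 2 replicates, with replicate ranks from 1055 to 3998. Summits lay upstream of the nearest start for 304 members (64.3%, Wilson interval 59.9 to 68.5%), and the share was 63.5% among relaxed-only intergenic peaks. It was 94.5% within 1000 bp of the start and 43.9% beyond 10000 bp; since gene bodies are excluded by the rule, few positions close to a start can be downstream of it.

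Per length of sequence that the rule allows, intergenic peaks were sparser than intronic ones. There were 11.8 members per Mb over 39.9 Mb, beside 22.7 intronic peaks per Mb over 52.6 Mb. The replicate lists gave 11.2, 11.2 and 13.6 intergenic peaks per Mb (SD 1.38, n = 3) and a mean of 23.4 ± 1.35 intronic peaks per Mb, a gap wider than the spread between replicates that was not tested. Density was highest in short gaps between protein-coding genes and lowest in long ones, which was not tested. It was 31.4 per Mb in gaps under 5 kb (replicates 31.4 ± 0.264), 18.3 in gaps of 5 to 10 kb, 11.8 in gaps of 10 to 20 kb, 14.7 in gaps of 20 to 40 kb and 3.69 in gaps over 40 kb (replicates 4.01 ± 0.980). The fall was not even, but the replicate value for gaps of 20 to 40 kb (14.4 ± 1.65) exceeded that for gaps of 10 to 20 kb by less than the SD of 2.54 of the latter. Gaps whose flanking genes both point away from the gap held 17.0 members per Mb, against 10.8 in tandem and 11.1 in convergent gaps. The replicate values were 16.5 ± 0.979, 11.2 ± 2.12 and 11.5 ± 0.761. The 12 gaps at arm ends, with 1.89 Mb of the allowed sequence, held 0 members. How evenly reads could be placed over the allowed sequence is unknown, and densities were not adjusted for it.

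**Figure D2:**
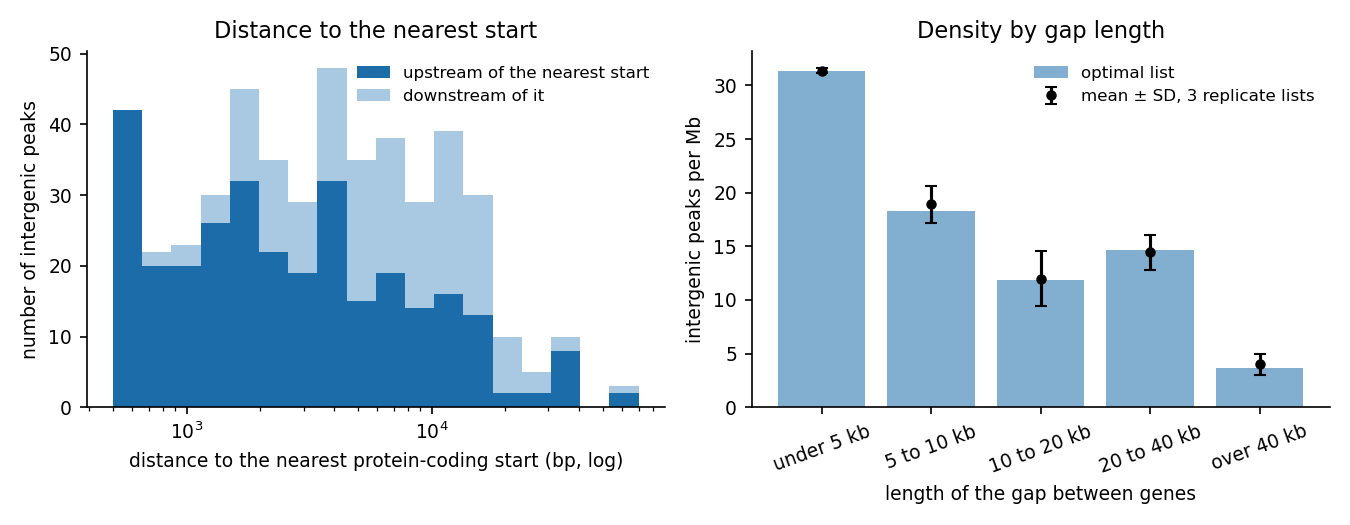
Left, number of intergenic peaks by distance to the nearest protein-coding start in bp (log scale), split into summits upstream and downstream of that start; nearly all below 1000 bp are upstream. Right, intergenic peaks per Mb of allowed sequence by length of the gap, with bars for the optimal list and points for the mean ± SD of the 3 replicate lists, from 31.4 per Mb in gaps under 5 kb to 3.69 in gaps over 40 kb.

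Chromosome X held the fewest members per Mb of the 6 arms in the optimal list. Its density was 8.34 per Mb (52 members; replicates 8.82 ± 1.58), beside 10.5 on 2R, 11.0 on 3R, 13.6 on 3L and 14.5 on 2L (replicates 14.6 ± 1.67). The replicates gave 8.34, 7.53 and 10.6 per Mb on X, which overlap the 11.2, 10.7 and 9.71 on 2R. Intronic peaks were as dense on X (23.6 per Mb) as over all arms (22.7). Chromosome 4 held 7 members in 0.298 Mb and 1 intronic peak in 0.552 Mb. The replicate values on 2L (13.3, 14.1 and 16.5 per Mb) all lay above those on 2R, a difference that was not tested, while those on 3R and 3L overlapped.

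Part of the members lay together in a few gaps. They fell in 307 gaps, 226 of which held 1 member, while 20 gaps with 4 or more members held 110 of them. The gap between RFeSP and chinmo (chr2L:1614161-1651257) held the most, 10 peaks that merge into 9 regions, with ranks from 87 to 3342 and support by all 3 replicates for 7. The replicates' own lists placed 8, 11 and 6 peaks in it. The 7 peaks nearest to chinmo lay 1537, 1737, 2468, 7798, 12335, 12537 and 18435 bp before the first base of the gene, and all 7 were supported by all 3 replicates. This support was partly shared. The peaks at 12335 and 12537 bp had the same best replicate peaks in all 3 replicates, and those at 1537 and 1737 bp in replicates 1 and 3. Peaks farther out, at 26328, 30323 and 31893 bp, ranked between 3073 and 3342.

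**Figure D3:**
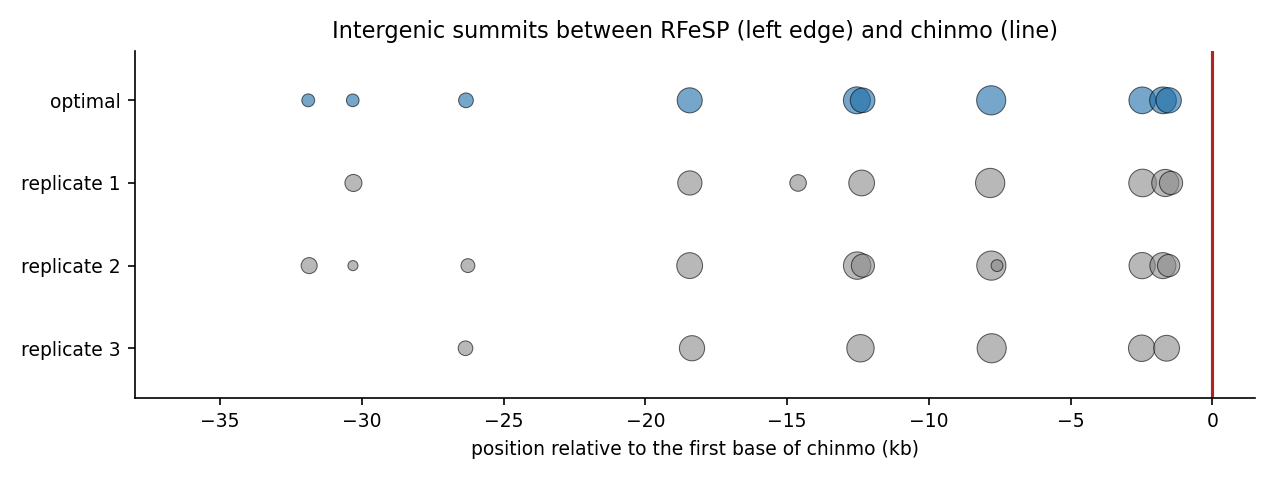
Summits in the gap between RFeSP and chinmo, in kb before the first base of chinmo (red line), for the optimal list and the 3688 highest peaks of each replicate; larger circles are higher ranks. Summits near 1.7, 2.5, 7.8, 12.4 and 18.4 kb recurred in all 3 replicates.

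Around noc, which encodes a zinc-finger protein of eye and appendage development, 3 neighbouring gaps were occupied. The gap from CG15283 to noc held 6 members, that from noc to CG33648 held 7, and that from CG33648 to CG4218 held 5. Support differed among them, with 1, 6 and 4 peaks respectively supported by all 3 replicates. The highest peak there, 11082 bp from a start of CG4218, ranked 199 in the optimal list and 218, 128 and 404 in the replicates. Gaps with 7 members lay between CG15615 and CG5550 and between CG44362 and CG7560, with support by all 3 replicates for 1 and 6 peaks.

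The other gaps with 4 or more members named here bordered genes of varied function. There were 6 between NijA and CG43245, and 5 each between hry and SrpRbeta, scyl and Dyro, CG6168 and CG6163, plh and corto, and mtSSB and tara. Of their neighbours, hry encodes the pair-rule repressor Hairy and corto a chromatin protein. There were 4 each between Hacd1 and Rh5, CG13321 and Psc, CG42808 and CG6191, CG13898 and Sf3b3, Ids and sty, dnc and Myc, and CG4004 and Paics. All 4 members between dnc, the cyclic AMP phosphodiesterase gene, and Myc, the growth regulator, were supported by all 3 replicates and ranked 1744 to 3400. They merge into 3 regions, and the replicates' own lists placed 3, 3 and 4 peaks in that gap, so members can share a replicate peak. Neighbouring summits can share sequenced fragments, so peaks within a gap are not independent.

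Annotated non-coding genes were found at intergenic peaks more often than at intronic ones in all 3 replicates. Of the members, 97 overlapped such a gene (20.5%, Wilson interval 17.1 to 24.4%), beside 7.73% of all optimal peaks, 5.87% of intronic peaks and 14.5% of relaxed-only intergenic peaks. In the replicates' own lists the intergenic share was 22.3, 23.5 and 17.9% and the intronic share 5.01, 5.41 and 4.95%. All 3 intergenic values lay above all 3 intronic ones, with means of 21.2 ± 2.98 and 5.13 ± 0.251% (SD, n = 3) and a difference of 16.1 ± 2.80 percentage points (exact 2-sided sign-flip permutation p = 0.25, the smallest that 3 replicates allow). Non-coding genes inside introns and between genes differ in number, and that was not adjusted for here. The replicate lists hold largely the same loci, whose annotation is fixed, so their SD and shared sign do not measure the spread over loci.

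The same was seen for non-coding starts. A start lay within 500 bp of the summit for 67 members (14.2%, Wilson interval 11.3 to 17.6%), beside 5.56% of all optimal peaks, 2.85% of intronic peaks and 8.11% of relaxed-only intergenic peaks. Replicate lists gave 15.8, 17.3 and 12.5% for intergenic and 2.42, 2.96 and 2.74% for intronic peaks, a difference of 12.5 ± 2.39 percentage points in the same direction in 3 of 3 replicates (exact permutation p = 0.25). As a scale, 4.13% of the allowed intergenic sequence lies within 500 bp of a non-coding start and 7.20% within a non-coding gene, while 64 member summits (13.5%, Wilson interval 10.7 to 16.9%) lay within one. Among the 50 highest members 12 had such a start (24.0%), among the 100 highest 21 (21.0%), and among the others 46 (12.3%).

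**Figure D4:**
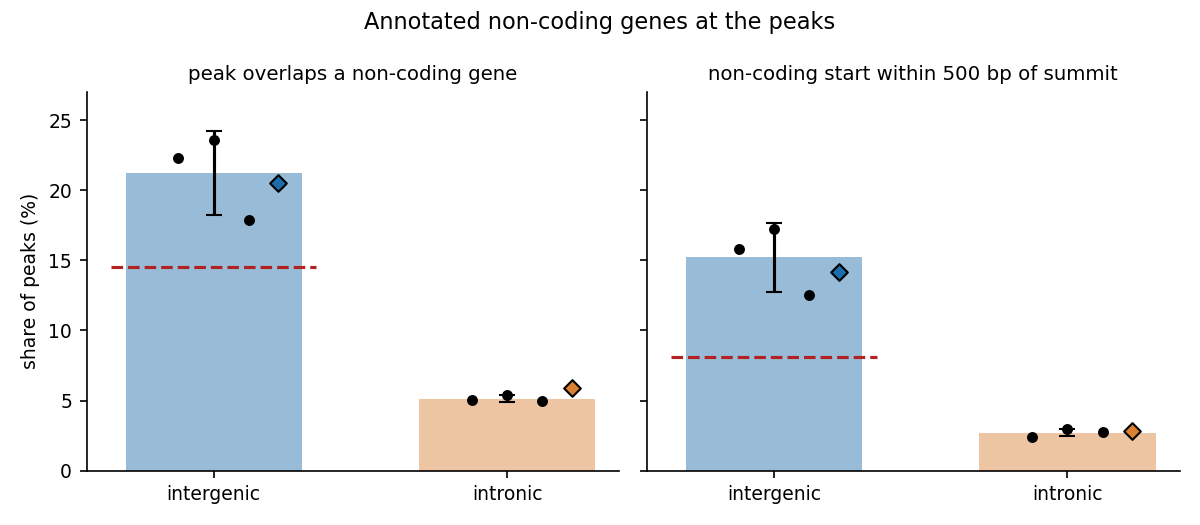
Share of peaks in percent that overlap an annotated non-coding gene (left) or have a non-coding start within 500 bp of the summit (right). Bars and error bars are the mean ± SD of the 3 replicate lists, black points the replicates, diamonds the optimal list and the red dashed line the relaxed-only intergenic peaks; every intergenic replicate value is above every intronic one.

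Long non-coding RNA genes made up most of these, as they did among relaxed-only intergenic peaks (659 of 763), so this is not particular to the members. They overlapped 77 members (16.3%), beside 12.5% of relaxed-only intergenic and 4.95% of intronic peaks. The other classes overlapped few: 6 members for transfer RNA genes, 5 for antisense RNA genes, 4 each for small nuclear and small nucleolar RNA genes, 2 for pseudogenes and 1 for other non-coding RNAs. No member overlapped an annotated microRNA or ribosomal RNA gene, and 4 overlapped an annotated transposable element. The highest long non-coding RNA peaks were those at lncRNA:CR31840, lncRNA:Vinr, lncRNA:CR44339 and lncRNA:CR31044. Lower in the list, lncRNA:Hsromega, the heat shock RNA omega gene, had a peak at chr3R:21296006-21296455 with its summit 104 bp after a start. It ranked 835, 1162 and 3695 in the replicates. A higher member inside the same gene (chr3R:21297582-21297826), 1082 bp after the nearest of its starts, ranked 418, 579 and 500. The gene lncRNA:flam, known as a source of piRNAs against transposable elements, had a peak at chrX:21631479-21631928, 187 bp upstream of its start, with ranks 1083, 1651 and 1571.

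Of the small nuclear RNA genes, snRNA:7SKa, whose RNA restrains the elongation factor P-TEFb, had the highest peak (chr3R:7474652-7474870), ranked 503, 354 and 499. The spliceosomal genes snRNA:U6:96Ac, snRNA:U1:95Ca and snRNA:U5:63BC had peaks ranked 2204, 3108 and 3229 in the optimal list, and the last pair of peaks were absent from the list of replicate 3. Small nuclear RNA genes numbered 32 in the annotation, and 4 of the 473 members overlapped one, as many as among the 5263 relaxed-only intergenic peaks. Of the transfer RNA genes, tRNA:Arg-CCT-1-2 had the highest peak near its start, 208 bp upstream at optimal rank 791. As stated above, peaks at such near-identical copies are uncertain.

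Members were next read by their nearest protein-coding gene, which need not be the gene they act on. They were nearest to 329 of 13945 protein-coding genes (2.36%). Of 441 genes in 16 lists, 40 were nearest to a member (9.07%), and these accounted for 54 of the 473 peaks. The length of the gaps beside each gene was not adjusted for, so the list shares describe position only. The lists were drawn up with earlier results of these data known.

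Forkhead and GATA factor genes had the largest share, 7 of 20. They were bin, foxo, slp2, GATAe, fkh, croc and slp1, with 10 peaks, 6 of them supported by all 3 replicates. The peaks of foxo, the insulin-regulated forkhead factor, lay 3371 and 4617 bp upstream and ranked 489, 440 and 669 and 2123, 2837 and 663 in the replicates. Those of GATAe, a factor of the endoderm, lay 2989 and 3848 bp upstream and were supported by all 3 replicates, while the 2 peaks of fkh were supported by 2 and 1. Mesoderm and muscle factor genes had 7 of 37, namely bin, slp2, Poxm, Doc2, Doc1, slp1 and mid. The peak of Poxm, a paired-box gene, lay 632 bp upstream and ranked 1157 in the optimal list. The best overlapping replicate peaks ranked 420, 660 and 438. The lists of replicates 1 and 3 placed 0 intergenic peaks in that gap, so the overlapping peaks there had no intergenic summit in it.

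Gut and Malpighian tubule genes had 4 of 19 (GATAe, sob, fkh and wg), and BTB zinc-finger genes 3 of 18 (chinmo, chn and lola). Notch pathway genes had 4 of 27: E(spl)malpha-BFM, Ser, which encodes a Notch ligand, E(spl)m2-BFM and fng, which encodes a glycosyltransferase that modifies Notch. Each had 1 peak, and all 4 were supported by all 3 replicates. The peak of E(spl)m2-BFM lay 536 bp upstream, and the lists of replicates 1 and 3 placed 0 intergenic peaks in its gap. The overlapping peaks there thus had no intergenic summit in that gap. Wnt, Hedgehog, Dpp and EGF pathway genes had 6 of 41, among them ptc, the Hedgehog receptor gene, with a peak 5301 bp upstream at ranks 1386, 1100 and 761, and wg, the Wnt ligand gene, with a peak 11007 bp upstream at ranks 2450, 2895 and 4515. The other members of that list were fz, aop, nkd and ci. Both peaks of ci, on chromosome 4, were absent from the list of replicate 3.

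Homeobox genes outside the LIM and Hox classes had 5 of 72 (zfh2, mirr, eyg, vvl and C15). The peak of zfh2 (chr4:497750-498052), 3903 bp upstream, ranked 127, 111 and 325. The 3 peaks of mirr, an Iroquois gene, lay 40327, 25392 and 8744 bp upstream, and the nearest of them was supported by 1 replicate only. LIM-homeodomain genes had 0 of 7, LIM cofactor genes 0 of 3 and Hox genes and cofactors 1 of 10 (hth). Cytoplasmic ribosomal protein genes had 1 of 85 (RpS23), although 67 of the 85 had an optimal peak of some class nearest to them. The remaining lists had 2 of 29 nuclear receptor and ecdysone genes (Hr51 and Eip75B), 2 of 37 axon guidance genes (Toll-6 and unc-5), 2 of 34 neuroblast and proneural genes (chinmo and D), 1 of 17 glial genes (dmGlut) and 2 of 23 heat shock and chaperone genes (stv and Hsc70-3).

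Sequence at the summits was richer in A and T than its surroundings in all 3 replicates. As for non-coding genes, the replicate lists hold largely the same loci, so shared signs here and below are not independent repeats over loci. The mean G+C content within 100 bp of member summits was 38.0%, and 40.8% in windows of the same length centred 500 bp to each side. In the replicates' own lists the summit minus flank difference was -2.26, -2.44 and -1.67 percentage points, a mean of -2.12 ± 0.404 (SD, n = 3; exact 2-sided sign-flip permutation p = 0.25). All the allowed intergenic sequence cut into 196031 windows of the same length had 40.9%, and relaxed-only intergenic peaks had 41.5% at the summit and 40.8% in the flanks. The difference at members (-2.78 points) was of the size at intronic peaks (-3.53), and that at promoter peaks was larger (-8.67), where the flanks hold 45.03% G+C.

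The homeodomain core TAATTA was more frequent at member summits than beside them in all 3 replicates, by a small margin. It was present on either strand (it is its own reverse complement) within 100 bp of 91 summits (19.2%, Wilson interval 15.9 to 23.03%), beside 14.6% of flank windows, 14.1% of all allowed intergenic windows and 14.0% of relaxed-only intergenic summits. The shares in the replicates' lists were 17.1, 17.3 and 15.1% at summits, with a mean of 16.5 ± 1.22% against 13.3 ± 1.24% in flanks. The difference of 3.23 ± 1.82 percentage points (SD, n = 3) had the same sign in 3 of 3 replicates, with an exact permutation p of 0.25 and 0.391 after Benjamini-Hochberg adjustment over 25 motifs. The difference was smaller with other windows, 1.45 points within 50 bp and 0.617 points within 200 bp of the summit, and in both it did not have the same sign in all 3 replicates (exact permutation p = 0.50). Intronic and promoter peaks held the core at 17.2 and 18.3%, and the intergenic minus intronic difference in the replicates was 1.15 ± 1.52 points, higher in 2 of 3 (exact permutation p = 0.50). Words on the list that differ from TAATTA by a single letter were not all raised at member summits. TAATGA had 11.0% at summits and 14.0% in flanks, a replicate difference of -2.36 ± 1.42 points, lower in 3 of 3. TGATTA had 13.5 and 11.7%, a replicate difference of 1.81 ± 1.39 points, higher in 3 of 3.

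Most members thus had no TAATTA in the window: 382 had none, 77 had 1, 12 had 2 and 2 had 3. The share was close in higher and lower members. It was 18.6% in the 236 higher and 19.8% in the 237 lower members, and 19.2% in members supported by all 3 replicates against 19.3% in the others. It was 13.4% (9 of 67) where a non-coding start lay within 500 bp and 20.2% (82 of 406) elsewhere, with Wilson intervals of 7.23 to 23.6% and 16.6 to 24.4% that overlap. The A/T-rich word AATATT, on the list as a control of base composition, was raised by more, with 27.3% at summits and 19.7% in flanks, a replicate difference of 6.32 ± 1.73 points. TTTAAA, another such word, had 24.7 and 19.5%, a replicate difference of 5.05 ± 0.255 points. TATATA and AAAAAAAA, also on the list and made of A and T alone, were not raised. TATATA had 14.4% at summits and 15.2% in flanks, a replicate difference of -0.355 ± 1.32 points, higher in 1 of 3. AAAAAAAA had 13.1 and 13.3%, a replicate difference of -1.63 ± 1.14 points, lower in 3 of 3. None of these words contains the homeodomain core. Base composition also differed between summits and flanks, and its part in the TAATTA share was not tested.

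**Figure D5:**
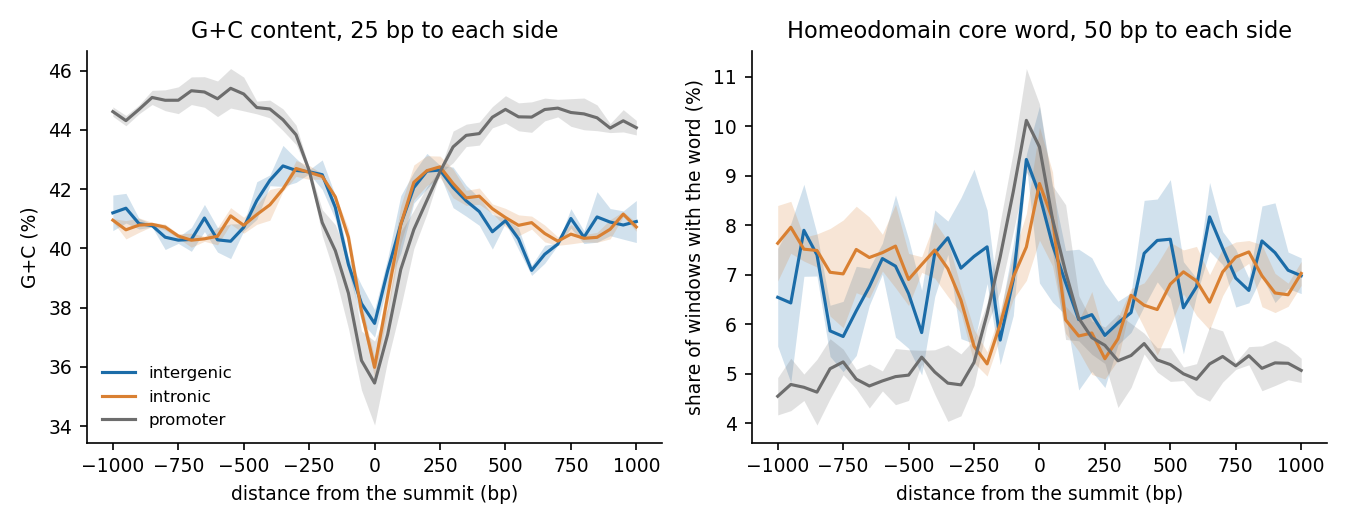
Left, mean G+C content in windows of 25 bp to each side, and right, share of windows of 50 bp to each side with the homeodomain core, both in percent against distance from the summit in bp. Lines are means of the 3 replicate lists and bands their SD, for intergenic (blue), intronic (orange) and promoter (grey) peaks; G+C is lowest at the summit in all 3 classes, and the core is highest within 50 bp of it.

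Several other motifs differed between intergenic and intronic summits in all 3 replicates. Of the 25, 9 were more frequent at member summits than in flanks in all 3 replicates and 7 less frequent; no adjusted p was below 0.391. The forkhead motif TGTTTAC was present at 6.55% of members and 12.1% of intronic peaks, a replicate difference of -4.50 ± 1.75 points with the same sign in 3 of 3 replicates. The GATA motif GATAAG was present at 8.88% of members and 13.9% of intronic peaks (-4.40 ± 1.45 points, 3 of 3). Both were thus rarer at intergenic than at intronic summits in all 3 replicates. Against the members' own flanks they went opposite ways. TGTTTAC was in 4.55% of flank windows, and its summit minus flank difference in the replicates was 2.92 ± 0.607 points, higher in 3 of 3. GATAAG was in 9.30% of flank windows, with a difference of -0.678 ± 0.492 points, lower in 3 of 3. Of the members, 10 had a forkhead or GATA factor gene as the nearest gene. TTTATGG, a motif of Caudal and Abdominal-B type homeodomains, had the opposite order, with 9.30% of members and 5.28% of intronic peaks (2.97 ± 1.21 points, 3 of 3). For the intergenic minus intronic difference of each of these 3 motifs the exact permutation p was 0.25, and 0.417 after adjustment over 25 motifs.

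Of the motifs known from fly promoters, TATCGATA and CAGCNCTG were present at a smaller share of members than of promoter peaks, differences that were not tested, and GAGAGAG was not. TATCGATA, the DREF site, was present at 0.423% of members (2 peaks) and 6.28% of promoter peaks, and in 0.442% of all allowed intergenic windows. The word CAGCNCTG was present at 1.90% of members, 7.40% of promoter peaks and 1.54% of all allowed windows. The GAGA motif GAGAGAG was present at 5.07% of members, 5.05% of promoter peaks and 5.18% of the members' flanks, against 2.22% of all allowed windows, with no excess of summit over flank. The Zelda site CAGGTAG was present at 1.48% of members and 1.01% of intronic peaks.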

How the data were processed

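Anti-GFP ChIP-seq peak lists of 3 replicates of 1 group were used, in the dm6 build. Per the deposited notes, a relaxed list was made from each replicate, another from the pooled alignments, and the optimal list by thresholding on the irreproducible discovery rate. No aligner, peak caller or setting is named in them. Each peak carries a signal value deposited by the authors, whose scale is not stated, and it served only for ranking inside 1 list. Read depth is unknown, and no interval covers read counting; Wilson intervals (95%) cover the number of peaks.

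Summits (1-based) were classed with BDGP 6.54 gene models (Ensembl release 115), in the order promoter, exon, intron, intergenic; sequence came from the RefSeq release 6 genome. Each replicate list of 30000 records was cut to its 3688 highest. Non-coding genes were annotated non-coding RNA, small RNA and pseudogene genes. Motifs were sought as exact words on both strands, overlaps included, within 100 bp of a summit and in windows centred 500 bp away. Peaks are not replicates, so tests were exact 2-sided sign-flip permutations over the 3 replicates, with a threshold of 0.05 that they cannot reach; the Benjamini-Hochberg adjustment ran over 25 motifs. The labels call the replicates biological; nothing says more of the collections. Annotation and sequence are fixed at each locus, and the replicate lists hold largely the same loci. For non-coding genes, G+C content and motifs, a sign shared by the replicates is thus not independent repetition over loci. Motif counting was tested on simulated data.

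The members, motifs and gene lists were chosen with earlier results of these data known. Named genes are those nearest to the 20 highest members, bordering gaps with 4 or more members, in the gene lists, farthest from a start, nearest the 500 bp limit, and the highest non-coding genes of a class. In the lists, 10 symbols matched through a synonym and 5 did not match. Alternatives left out each replicate in turn or changed the promoter limit, gene models, list depth, overlap, window, flank and gene assignment. Scripts used Python 3.11.15, numpy 2.4.6, scipy 1.17.1, pandas 2.3.3 and matplotlib 3.10.9. The dm3 lists were not used. Another gap that the rule names is not reported here.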

Additional observations from a re-analysis of the deposited data

How the results depend on the processing

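No paired analysis was possible because there is only 1 group. Of 44 alternatives, 34 kept the result, 8 moved it further and 2 turned its sign. For a difference, kept means only that the mean had the same sign. For counts it means a value within 1.5 times, and for the median distance a value within the replicate SD. The threshold played no part, because the permutation test cannot reach it with 3 or fewer replicates. The TAATTA windows of 50 and 200 bp count as kept, although their replicates did not all share a sign. Sizes could still differ, as the ranges below show. Requiring overlap with both other replicates left 292, 296 or 334 members when replicate 1, 2 or 3 was left out, against 473. Restricting to the 1844 highest optimal peaks left 206, and 25 of the 54 peaks nearest to listed genes. Counting both genes at the ends of a gap gave 90 such peaks, and leaving out a replicate 37 to 40. Support by all 3 replicates rose from 261 to 431 members with the whole relaxed lists and fell to 141 with the 1844 highest peaks of each, and ranged from 292 to 334 when 1 replicate was not required. The intergenic minus intronic support difference turned positive with whole lists (0.337 points) and among the 1844 highest peaks (1.37 points), and ranged from -2.08 to -0.0822 without 1 replicate. The cause was not tested. With the starts of all annotated genes the median distance fell to 1779 bp, which follows from the larger number of starts; without 1 replicate it was 3670 to 3781 bp. The non-coding difference ranged from 15.1 to 17.7 points and the TAATTA difference from 2.21 to 3.97 points without 1 replicate. The mean TAATTA difference was 0.617 points with windows of 200 bp to each side and 1.45 points with 50 bp, where the sign was no longer shared by all 3 replicates (exact permutation p = 0.50 in both). It was 2.00 points with flanks at 1000 bp and 4.87 points with the 1844 highest peaks of each replicate, with a shared sign. Depth and the scale of the signal value were unknown.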

Other observations

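All 2080 words of 6 letters were counted, with a word and its reverse complement as 1, within 100 bp of member summits and in the flanks. The words named here were picked after their values were seen and were not tested. Of the 15 words with the largest excess, 12 were made of A and T alone, led by AAATAT (49.7% of summits and 35.3% of flank windows). AGTGTA stood out among words with G or C. It was present at 82 member summits (17.3%, Wilson interval 14.2 to 21.0%) and in 7.08% of flank windows, and the excess was 8.69, 7.74 and 11.2 percentage points in replicates 1, 2 and 3. The longer form CAGTGTA was present at 7.82% of members and 1.48% of flanks, beside 1.89% of all allowed intergenic windows. The other classes held it too, at 6.29% of intronic and 4.13% of promoter summits, so it is not particular to intergenic peaks. Overlapping words were also raised, with ACACTG at 15.4 against 6.55% and CTACAC at 12.1 against 3.70%. AGTGTA was not centred on the summit. In windows of 25 bp to each side it was present in 2.75% of members at the summit, in 5.92 and 6.13% at 50 and 100 bp to the left, in 4.02 and 5.29% at 50 and 100 bp to the right, and in 1.69% at 250 bp to the left. Which protein, if any, binds it was not tested.

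The highest members were narrower than the lowest in the deposited list. The median width was 450 bp over all members, 352 of which had exactly that width. The 100 highest members had a median of 258 bp and the 100 lowest one of 450 bp. How the width was set is not stated.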
